A study of Homo sapiens with 10 samples.

Results

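The response of SKBR3 cells to TWEAK was described from H3K27ac ChIP-seq peak lists, gene by gene. SKBR3 is an established HER2 breast cancer cell line, and the comparison took every peak list of that line, 4 of the 8 in a series of 10 samples. These were 2 lists from untreated SKBR3 cells and 2 from SKBR3 cells given TWEAK at 10 ng/ml for 48 h, with fresh ligand added at 24 h. All cells, untreated ones included, had been starved of serum for 8 h. The other lists came from MDA-MB-453, a second HER2 line under the same treatment, and are used only in 1 paragraph, while the 2 input samples had no list of their own. The question was which regions of acetylated chromatin shifted with the ligand in a HER2 cell, and near which genes they lay.

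TWEAK is a ligand of the TNF superfamily, and its receptor Fn14 is encoded by TNFRSF12A. Binding recruits TRAF adaptors and cIAP ubiquitin ligases, which stabilises the kinase NIK (MAP3K14) and lets the NF-κB2 precursor mature into p52 beside RELB, while the MAP kinase branch feeds AP-1. H3K27ac is a histone acetylation found at active promoters and enhancers, so a region that gains it is commonly read as a regulatory element in use.

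The SKBR3 lists held 43684 to 51687 peaks on chromosomes 1 to 22 and X, and TWEAK replicate 2 was the longest. Their median fold enrichment over input ran from 3.61 to 4.25. Peaks that overlapped were merged into 62104 regions, of which 30803 lay in all 4 lists. Within those shared regions each list was turned into ranks of fold enrichment, so that a longer list did not raise its own values. A rank percentile is given on that scale, and a rank difference is the TWEAK mean minus the untreated mean of the matching normal scores, with its standard error (SE). Lists correlated between 0.785 (untreated replicate 1 with TWEAK replicate 2) and 0.896 (untreated replicate 1 with TWEAK replicate 1), so lists of the same group were not always the most alike. Of 9 genes of HER2-type breast epithelium, 8 had a peak at a transcription start site (TSS) in every SKBR3 list, and the one without was CDH1, a gene known to be deleted in this line. Only CD68 of 10 blood cell markers had one.

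Sequences under gained regions are shown before their values, because gained regions held matches to the NF-κB and AP-1 motifs more often than all regions did. Each is hg38, plus strand, with 30 bases on each side of a match, anywhere in the region, that is written in capitals. They come from regions that only the TWEAK lists held. NF-κB matches are shown near CCL5 (chr17:35890556-35890625), ICAM1 (chr19:10265454-10265523 upstream and chr19:10271781-10271850 inside the gene), MED14 (chrX:40871562-40871631) and KCNN3 (chr1:154750788-154750857). AP-1 matches, TGACTCA or TGAGTCA, are shown near HBEGF (chr5:140338568-140338634) and MYLK (chr3:123630885-123630951). None of the stretches touches an exon of a protein-coding transcript.
CCL5: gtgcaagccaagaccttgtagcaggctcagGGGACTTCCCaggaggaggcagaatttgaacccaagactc
ICAM1 upstream: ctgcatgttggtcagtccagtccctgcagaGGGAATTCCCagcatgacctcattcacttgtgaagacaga
ICAM1 intron: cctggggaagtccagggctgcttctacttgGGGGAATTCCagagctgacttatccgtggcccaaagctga
MED14: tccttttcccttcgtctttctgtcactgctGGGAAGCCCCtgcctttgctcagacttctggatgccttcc
KCNN3: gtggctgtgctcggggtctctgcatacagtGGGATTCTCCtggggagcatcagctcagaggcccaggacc
HBEGF: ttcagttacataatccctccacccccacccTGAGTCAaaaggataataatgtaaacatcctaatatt
MYLK: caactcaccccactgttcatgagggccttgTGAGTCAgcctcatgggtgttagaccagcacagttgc

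Among the regions in all 4 lists, 173 rose in rank with TWEAK and 1 fell (limma, adjusted p under 0.05), which is 0.562% and 0.00325% of the 30803 tested. The median region that rose had a fold enrichment of 3.40 and 3.61 in the untreated lists and of 9.12 and 12.1 in the TWEAK lists, and its rank percentile went from 24.8 and 20.8 to 79.4 and 90.2. The ratio of mean fold enrichment, TWEAK over untreated, was between 1.83 and 5.31 across the 173 regions, with a median of 2.73. TWEAK replicate 2 ranked 157 of them above TWEAK replicate 1. At an unadjusted p under 0.05, 1861 regions were higher and 841 lower. Replicates of a group lay farther apart for weak regions: the median gap was 0.37 normal-score units in the lower part of the ranking by mean score and 0.23 in the upper part.

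The 173 regions lay mostly away from promoters. Only 18 (10.4%) came within 1 kb of a TSS, against 33.5% of all shared regions, while 82 were in introns and 70 outside protein-coding genes. Within 100 kb of their midpoint the nearest TSS belonged to 133 genes, which is 0.932% of the 14272 genes with any region. Over all shared regions the median rank difference was −0.14 at promoters and 0.03 elsewhere. Ranking by width times fold enrichment, in place of fold enrichment, left 0 of the 30803 regions past the threshold. All 173 kept a positive difference there with an unadjusted limma p under 0.05. They were chosen by fold enrichment in the same lists, which enters that product, so this is no separate evidence. Restricting the lists to peaks with q under 1e-05 left 27 risen regions, and leaving out 1 library gave between 85 (without TWEAK replicate 2) and 584 (without TWEAK replicate 1).

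**Figure D1:**
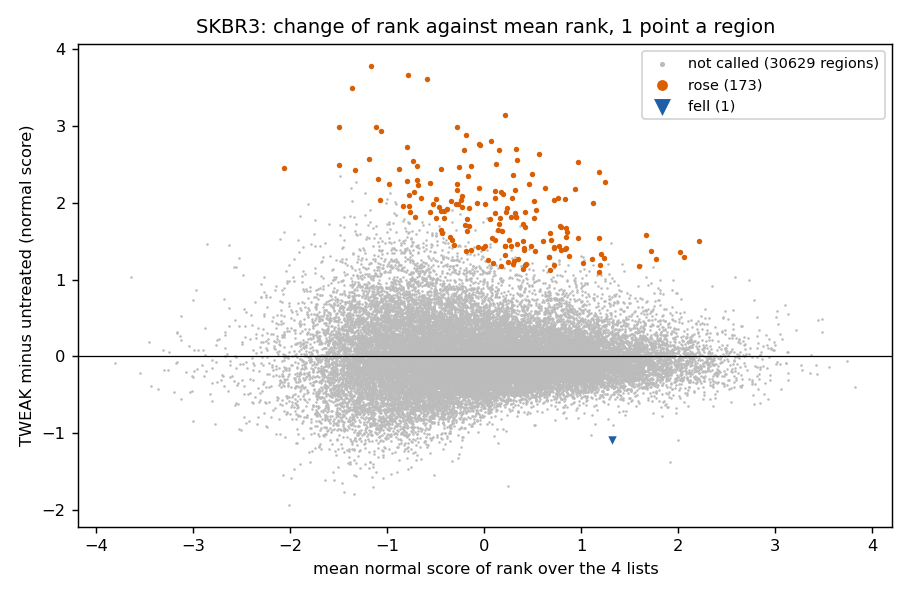
Rank difference (TWEAK minus untreated, normal-score units) against the mean normal score over the 4 SKBR3 lists, 1 point for each of the 30803 shared regions. Orange points are the 173 regions that rose, the blue triangle is the 1 that fell, and the grey cloud is wider at low mean score.

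The largest rises by rank difference began near the bottom of the untreated lists. The normal-score scale stretches both ends of the ranking, so this order favours such starts. An intron of NRCAM, a cell adhesion molecule of the immunoglobulin family (chr7:108210696-108212793), had fold enrichments of 2.36 and 2.42 without TWEAK and of 8.41 and 12.8 with it. Its rank percentiles were 0.414 and 0.482 against 76.1 and 91.7, a rank difference of 3.66 (SE 0.383, limma adjusted p = 0.00142). The groups did not overlap, and in both TWEAK lists the region ranked above most others. A region 6.71 kb from a TSS of RNF114, an E3 ubiquitin ligase (chr20:49928314-49931052), went from 2.21 and 2.72 to 10.1 and 13.5 in fold enrichment (rank difference 3.62, SE 0.39, limma adjusted p = 0.00142). Near QKI, which encodes a splicing regulator, the region chr6:163366191-163370249 had 2.61 and 3.88 without TWEAK and 12.9 and 21.5 with it (rank difference 3.14, SE 0.412, limma adjusted p = 0.00468). The untreated lists differed there, at percentiles 1.85 and 26.5, but both stayed far under the TWEAK percentiles of 90.2 and 98.8.

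Cytokine receptor, transporter and hyaluronidase genes followed. IL6ST encodes gp130, the signalling chain shared by receptors of the IL-6 family, and a region 32.8 kb from it (chr5:56024612-56031069) had 2.90 and 2.75 without TWEAK and 12.26 and 12.04 with it. Its TWEAK lists were nearly equal, and its SE of 0.282 was the smallest of the 12 largest rises (rank difference 2.89, limma adjusted p = 0.00113). The promoter of SLC28A3, a concentrative nucleoside transporter (chr9:84338836-84341450), went from 3.21 and 2.79 to 12.7 and 15 (rank difference 2.80, SE 0.302, limma adjusted p = 0.00142). A promoter of HYAL4, of the hyaluronidase family (chr7:123844484-123847658), had 3.04 and 2.50 against 9.12 and 14.6 (rank difference 2.99, SE 0.41, limma adjusted p = 0.00585). In none of these did the groups overlap.

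Smaller fold enrichments stood behind the rest of the 12. An intron of CAVIN1, needed to form caveolae (chr17:42409116-42410668), had 2.51 and 2.39 without TWEAK and 5.42 and 8.29 with it (rank difference 2.93, SE 0.418, limma adjusted p = 0.00748), a call lost without TWEAK replicate 2, where the difference was 2.63. The other 4 lay on chromosome 8, where 13 of the 173 regions (7.51%) and 3.67% of all shared regions were found. The region nearest to MYC, the proto-oncogene and transcription factor (chr8:127747778-127750173, 11.2 kb from a TSS), had 2.40 and 2.40 without TWEAK and 5.84 and 7.42 with it (rank difference 2.99, SE 0.409, limma adjusted p = 0.00585). The promoter of MYC did not pass the test, with rank percentiles of 29.9 and 41.1 in the untreated lists and 20.4 and 18.2 in the TWEAK lists. Regions nearest to GDAP1 (143 kb away), COLEC10 and KLHL38 had rank differences of 3.78, 3.49 and 2.99, from untreated percentiles under 1 in every case. Ranked by −log10 q, these differences were smaller, at 2.89, 2.53 and 1.96, and that of the MYC region was 1.87. The one near KLHL38 was no longer called without TWEAK replicate 2, at 2.70.

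**Figure D2:**
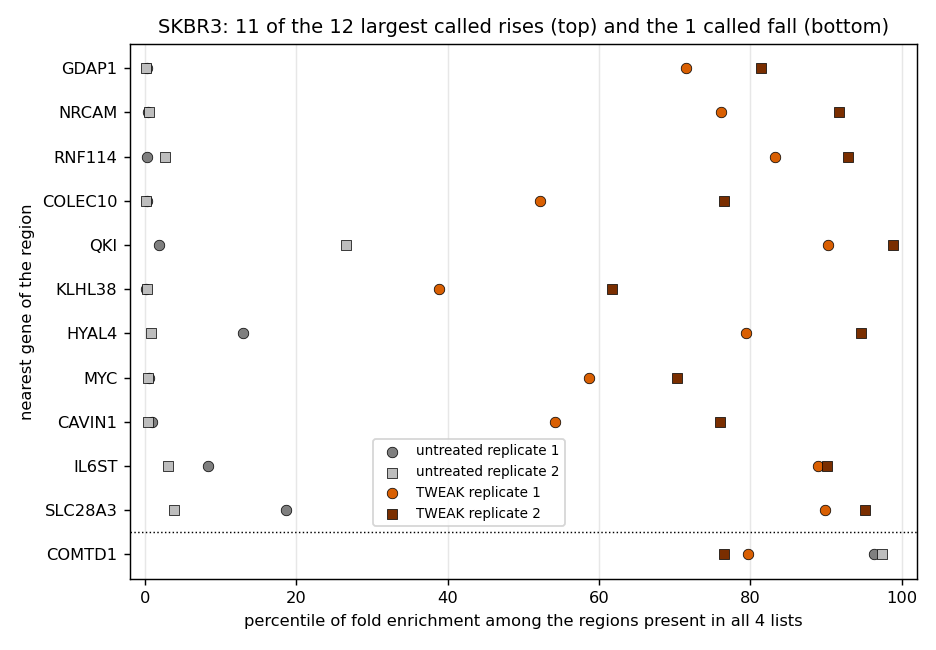
Rank percentile of fold enrichment among the 30803 shared regions in each of the 4 SKBR3 lists, for 11 of the 12 regions with the largest called rise and, below the dotted line, the 1 called fall. Grey symbols are untreated and orange or brown symbols TWEAK libraries, and in no row do the groups overlap.

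The 1 region that fell was a wide one whose nearest TSS is that of COMTD1 and whose midpoint lies in VDAC2, a channel of the outer mitochondrial membrane (chr10:75220720-75238899). Its fold enrichments were 14.6 and 19.8 without TWEAK and 9.18 and 8.38 with it, at rank percentiles of 96.4 and 97.4 against 79.6 and 76.6 (rank difference −1.09, SE 0.21, limma adjusted p = 0.041). The call was lost without untreated replicate 2 (−1.02) and without TWEAK replicate 2 (−1.04). With width times fold enrichment its difference was 0.037. Larger negative differences, from −1.93 to −1.61, belonged to 7 regions with both TWEAK lists under both untreated ones, nearest to FAM83A, SCIN, PITX1 (145 kb away), LYRM9, FFAR2, ACSS1 and CTDSPL, but none of these was called (limma adjusted p from 0.114 to 0.245). Of all shared regions, 17.6% had both TWEAK ranks above both untreated ranks and 22.2% had both below.

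Among the 18 promoters that rose were 1 of TNIP1 and that of BIRC3. TNIP1 encodes ABIN-1, which works with the deubiquitinase A20 to restrain NF-κB. Its region (chr5:151092453-151097478) had fold enrichments of 3.82 and 3.61 without TWEAK and 12.5 and 11.4 with it (rank difference 1.81, SE 0.232, limma adjusted p = 0.00441). The strongest TNIP1 promoter region (chr5:151079482-151087468) had 15.6 and 13.5 without TWEAK and 11.4 and 11.3 with it, and was not called (rank difference −0.44, SE 0.238, limma adjusted p = 0.634). BIRC3 encodes cIAP2, a ubiquitin ligase of the Fn14 and TNF receptor complexes. Its promoter region (chr11:102312176-102318982) had 4.31 and 4.02 without TWEAK and 8.87 and 10.1 with it (rank difference 1.21, SE 0.238, limma adjusted p = 0.0458), and the call was lost without untreated replicate 2 (0.97) or TWEAK replicate 2 (1.09). The RefSeq promoter of BIRC3, 250 bases before to 50 after its start, held 2 matches to the NF-κB motif. Of the 18 genes with a risen promoter that matched a RefSeq promoter, 2 held any match, and 5.91% of 35116 RefSeq promoters did. These were BIRC3 and TNIP1. The TNIP1 match was in a promoter (chr5:151080985-151081284) within its strongest region, which was not called, and not within the risen one. The first share counts genes, some with more than 1 RefSeq promoter, and some of these promoters lay outside the risen region. The remaining promoters that rose were those of RAB42, ITGAM, ITGB8, DTX2, IL22RA2, NCCRP1, STOML1, ANKRD22, BTN2A2, UVRAG, KLHDC7B, AMHR2, MMRN2 and DTX4, named after their values were seen. ITGAM and ITGB8 encode integrin chains, and their rank differences were 2.64 (SE 0.322, limma adjusted p = 0.00329) and 2.54 (SE 0.353, limma adjusted p = 0.00633).

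Other members of the gene lists that rose did so at distal regions. An intron of CFLAR, which encodes the caspase-8 inhibitor cFLIP (chr2:201147999-201153418), had 2.91 and 2.59 without TWEAK and 4.75 and 9.88 with it (rank difference 2.23, SE 0.443, limma adjusted p = 0.0483). That TWEAK gap was wide, and without TWEAK replicate 2 the difference was 1.68 and uncalled, as it was when ranked by −log10 q (2.02) or by percentile among all peaks of a list (2.05). A region 49.9 kb from LIF, a cytokine that signals through gp130 (chr22:30195189-30198492), had 6.47 and 3.96 against 17.5 and 14.9 (rank difference 1.68, SE 0.309, limma adjusted p = 0.0317). Its call went without untreated replicate 2 (1.09) or TWEAK replicate 2 (1.72). The intron of NFE2L3, an NRF family transcription factor (chr7:26155023-26157846), had 2.65 and 2.54 against 5.27 and 10.4 (rank difference 2.72, SE 0.419, limma adjusted p = 0.0109), uncalled without TWEAK replicate 2 (2.22).

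Lineage genes appeared as well. In TP63, the transcription factor of basal epithelium, an intronic region 78.0 kb from the nearest TSS (chr3:189709789-189713532) had 3.70 and 3.74 without TWEAK and 9.08 and 15 with it (rank difference 1.81, SE 0.276, limma adjusted p = 0.0108). ERG, an ETS factor of endothelium, had an intronic region (chr21:38493598-38496763) at 3.52 and 3.70 against 10.6 and 19.95 (rank difference 2.24, SE 0.305, limma adjusted p = 0.00572). Near HLA-E, a non-classical MHC class I molecule, a region 31.0 kb away (chr6:30519297-30521719) had 2.87 and 2.71 against 6.36 and 5.41 (rank difference 1.88, SE 0.376, limma adjusted p = 0.0487), a call lost without TWEAK replicate 1 (1.72) or 2 (2.04) and when ranked by −log10 q (1.71) or by percentile among all peaks (1.72). The estrogen receptor gene ESR1 had an intronic region that was already strong, at 9.58 and 11.7, and reached 21.9 and 28.2 (rank difference 1.26, SE 0.253, limma adjusted p = 0.0494), uncalled without TWEAK replicate 2 (0.93). In the 10 regions plotted for the gene lists, the MYC region included, no untreated value reached a TWEAK value. A call with 2 lists a group favours such a separation, so in called regions it is no added evidence.

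**Figure D3:**
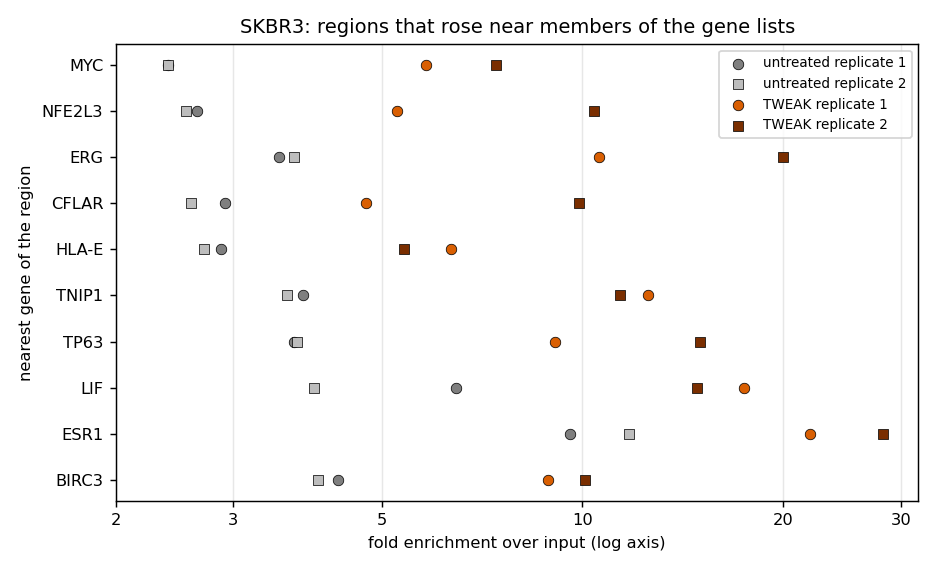
Fold enrichment over input, on a log axis, in each of the 4 SKBR3 lists for 10 regions that rose near members of the gene lists, ordered by rank difference. Every grey (untreated) symbol lies to the left of the orange and brown (TWEAK) symbols of its row.

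Some genes held more than 1 region that rose. These were ARHGAP26, CD47, ETS1, ITPR1, KLHL38, ODC1, PALLD, QKI, RAB42, SLC1A1, SPDYE17 and TCF20, 12 genes named after their values were seen. ITPR1 encodes an intracellular calcium channel, ETS1 a transcription factor and CD47 a surface ligand that restrains phagocytosis. The regions that rose also lay close to regions that appeared: 54 of the 173 (31.2%) had a gained region within 25 kb, against 9.18% of all shared regions, and 1 (0.578%) had a lost region that near, against 4.06%. Of the 133 genes with a risen region, 63 (47.4%) also had a gained one, against 12.8% of all genes with a region. The 63 were 3.46% of the genes with a gained region. A gene with more regions has more chances of a gained one, and the shares were not matched for that number.

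Width gave no call. No shared region widened or narrowed at adjusted p under 0.05, 0% of those tested in either direction, and the lowest adjusted p in limma was 0.491. At an unadjusted p under 0.05, 1271 regions were wider and 861 narrower. The peaks of the 173 risen regions were nevertheless all wider on average with TWEAK, by a median of 1.12 on the log2 scale after centring each list, a median ratio of 2.18. In 165 of them (95.4%) both TWEAK widths exceeded both untreated widths, against 17.3% of all shared regions. Width and fold enrichment come from the same peaks, so the widths are not a separate line of evidence.

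The largest uncalled gains in width were at QKI, PIWIL4, ARHGAP26, IQSEC2 and OR4F21. The QKI region described before covered 240 and 410 bp in the untreated lists and 3896 and 3850 bp in the TWEAK lists, a log2 difference of 3.58 (SE 0.36, limma adjusted p = 0.491). In PIWIL4, of the piRNA pathway, the called length went from 350 and 511 bp to 4043 and 6199 bp (log2 difference 3.52, SE 0.313, limma adjusted p = 0.491). An intron of ARHGAP26, a GTPase-activating protein, went from 554 and 208 bp to 3450 and 3907 bp (log2 difference 3.39, SE 0.538, limma adjusted p = 0.525). The PIWIL4, ARHGAP26 and IQSEC2 regions were among those that rose in rank, and OR4F21 was not (rank difference 0.81, limma adjusted p = 0.591).

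The largest uncalled losses of width lay near TPSD1, a tryptase gene, in IL1RAP, the accessory chain of the IL-1 receptor, near CCR7, a chemokine receptor gene, and at ENSG00000249141 and ENSG00000288715. IL1RAP covered 2387 and 2204 bp without TWEAK and 295 and 404 bp with it (log2 difference −2.78, SE 0.335, limma adjusted p = 0.491), with a rank difference of −0.48 that did not pass the test (limma adjusted p = 0.82). Both TWEAK widths lay below both untreated widths in 19.2% of the shared regions.

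Presence in the lists was compared next, with no test. Gained regions, held by both TWEAK lists and by neither untreated list, numbered 2865 (4.61% of all regions), and lost regions 868 (1.40%). Gained regions were 76.8% of the sum, but without untreated replicate 2 the order turned, with 4839 gained and 5879 lost. A lost region then needed a peak in only 1 list and a gained one in 2, which favours lost regions. Without untreated replicate 1, under the same rule, 4557 were gained and 3333 lost. With every list cut to the 43684 peaks of lowest q, 2237 were gained and 1303 lost, so that the gained share was 63.2%, and with q under 1e-05 it was 88.9%. In the gained regions the peak of TWEAK replicate 2, the longest list, had the higher list percentile, the percentile of its fold enrichment among all peaks of its list, in 74.3%. Within that list their median percentile was 38.3, and in TWEAK replicate 1 it was 22.95.

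The strongest gained regions stood high in the TWEAK lists while no peak was called in the untreated ones. A region 136 kb from MED14, a Mediator subunit (chrX:40869455-40873734), had fold enrichments of 10.9 and 16.5, at list percentiles of 90.1 and 97.9. An intron of KCNN3, a small-conductance calcium-activated potassium channel (chr1:154750015-154752753, 108 kb from a TSS), had 10.5 and 18.2. A promoter of SLC1A2, a glutamate transporter (chr11:35301229-35305477), had 10.3 and 17.2. In each of these TWEAK replicate 2 was the higher list. The remaining 5 were nearest to FAM205C, ABHD17C (a depalmitoylase), TLN2 (talin 2, which links integrins to actin), DNM3 (a dynamin) and KRT2 (a type II keratin). Their mean list percentiles ran from 90.9 to 93.2. Of the 8, 5 held a match to the NF-κB motif in their central 1000 bp, and 15.1% of all regions did. Peak lists record presence only past the caller's threshold, so an absent peak sets no level in the untreated cells.

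By gene, 1820 genes had a gained region nearest to a TSS within 100 kb (12.8% of the 14272 genes with a region) and 706 had a lost one (4.95%), and 111 had both. A single gained region was the rule, in 1501 genes, and 71 genes had 3 or more. ITPR1 had the most, with 7 of its 30 regions gained and 2 risen. The gained peaks in ITPR1 were modest, at list percentiles up to 51.2 in TWEAK replicate 1 and 72.8 in TWEAK replicate 2. ARHGEF28, a guanine nucleotide exchange factor, had 5 of 20 regions gained and 1 risen, and FAM107B had 5 of 14 gained.

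Another 17 genes had 4 gained regions each, and the 7 of them with the strongest gained region were VASH2, ARHGAP26, AZIN1, XIAP, ATL2, NEK6 and NPIPB3. XIAP, an inhibitor of caspases, had 4 of 7 regions gained, the strongest 45.1 kb from its TSS (chrX:123813111-123816138) with fold enrichments of 6.54 and 7.43. A 70-base stretch of that region is nearly the reverse complement of one in another gained region (chrX:123798384-123799990). Reads of such copies may not be told apart, so these may not be separate gains. VASH2, a tubulin carboxypeptidase, had 4 of 5, and its promoter region (chr1:212951630-212953739) had 6.14 in TWEAK replicate 1 and 13.9 in TWEAK replicate 2. ARHGAP26 had 4 of 37 gained beside 2 that rose, all of the 6 in its introns. AZIN1, a regulator of polyamine synthesis on chromosome 8, had 4 of 17, ATL2, a GTPase that shapes the endoplasmic reticulum, 4 of 15, and NEK6, a mitotic kinase, 4 of 9. NPIPB3 belongs to a multigene family on chromosome 16 whose copies are nearly identical, so its 4 of 10 are uncertain.

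Lost regions were spread thinly, and 5 genes had 3 or more. PREX1, a Rac exchange factor, lost 4 of 37 regions, all in introns, with list percentiles from 0.466 to 30.8. LRPAP1, a chaperone of LDL receptor family proteins, lost all 3 of its regions, among them a promoter peak with fold enrichments of 3.18 and 3.99. CACNA1D lost 3 of 27 and gained 1, NFIC lost 3 of 19, and KCNMA1 lost 3 of 45 and gained 3. Their peaks ranked low in the untreated lists, as lost regions did in general, at median list percentiles of 19.6 and 18.4.

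The gene lists were read by role, against 4.24% gained and 1.42% lost among all regions within 100 kb of a gene. NF-κB subunits had 1 gained region of 15, 22.6 kb from REL. All 5 subunit promoters were shared by the 4 lists and none passed the test. The promoter of NFKB2, the precursor of p52, had rank percentiles of 89.8 and 86.7 without TWEAK and 95.9 and 94.4 with it (rank difference 0.47, SE 0.214, limma adjusted p = 0.558). RELB stood at 98.1 and 98.2 against 98.0 and 98.3. Feedback regulators had 3 gained and 3 lost regions of 64. Gained ones were near OTULIN, TNFAIP3 and NFKBIB, and lost ones near ZC3H12A, TNIP2 and BCL3. The region of TNFAIP3, which encodes A20, lay 59.5 kb from its TSS (chr6:137926048-137928153) with fold enrichments of 3.02 and 3.70.

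Adaptors and kinases of the TNF receptor complexes had 5 gained regions of 98 (5.10%) and 1 lost. The strongest was a TRAF1 promoter (chr9:120924658-120927651), with fold enrichments of 5.91 and 6.62 in the TWEAK lists and none in the untreated ones. TRAF3, which holds NIK at low levels in resting cells, had 1 gained and 1 lost intronic region. IKBKE, CFLAR and TNFAIP2 each had 1 gained. The promoter of IKBKE, singled out after its values were seen, had rank percentiles of 7.83 and 7.12 without TWEAK and 40.2 and 53.4 with it, without overlap and without passing the test (rank difference 1.36, SE 0.362, limma adjusted p = 0.16). TNF receptors and their ligands had 0 gained and 0 lost regions of 39.

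Chemokines and cytokines had 4 gained regions of 53 (7.55%) and none lost, near CCL5, CXCL1, CSF1 and CCL2. The one 10.3 kb from CCL5, a T cell attractant (chr17:35889447-35892686), had fold enrichments of 4.97 and 6.14. CXCL1, a neutrophil attractant, had one 48.1 kb away with 4.09 and 5.38. The 7 promoters of the list in all 4 lists had a median rank difference of 0.45, against −0.15 over the promoters of all genes, and none was called. This was the highest such median among the gene lists. Adhesion and stress effectors had 6 gained of 69 (8.70%) and 1 lost. ICAM1, an endothelial and epithelial adhesion molecule, had 2, at its promoter (chr19:10270321-10272210, 4.12 and 5.12) and 5.68 kb from a TSS (chr19:10264839-10265989, 3.67 and 5.20). MMP9, a matrix metalloproteinase, had a gained promoter region with 2.97 and 4.23.

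Among the lists with 30 or more regions, the ERBB and HER2 list had the highest share gained, 9 of 61 (14.8%), with none lost. It holds receptors, ligands and related genes such as ERRFI1. HBEGF, an EGFR ligand, had 2, one of them 17.6 kb from its TSS with 4.68 and 8.66 (chr5:140327278-140330705) and the other in its own intron with 3.90 and 4.70 (chr5:140338033-140341375). EGFR had 2, at 3.23 and 4.58 and at 2.71 and 3.69. ERRFI1, a feedback inhibitor of the ERBB receptors, had 3, and TGFA and EREG had 1 each. None of the promoters of the 9 genes of this list in all 4 peak lists was called. Their median rank difference of −0.335 was the lowest among the gene lists. ERBB2 itself had none gained or lost, and it shares 1 region with GRB7 and MIEN1, as PGAP3 does with STARD3. Its rank percentiles were 94.8 and 99.7 against 93.6 and 94.4 (limma adjusted p = 0.593).

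Basal and myoepithelial markers had 5 gained of 41 (12.2%) and luminal identity genes 4 gained and 3 lost of 186 (2.15% and 1.61%). Besides the TP63 region that rose, TP63 had 3 gained regions with fold enrichments from 2.91 to 3.07 in TWEAK replicate 1 and from 3.55 to 5.73 in TWEAK replicate 2. KRT5, a basal keratin, had a gained promoter region with 3.90 and 4.66 (chr12:52515508-52517413), and an intron of MYLK, the myosin light chain kinase, had 4.57 and 11.3. The number of basal markers with a TSS peak was 1 and 1 of 7 in the untreated lists and 2 and 4 in the TWEAK lists, and the endothelium list stayed at 1 of 6 and the fibroblast list at 2 of 8. Whether these values reflect other cells in the culture was not tested. KRT8, a luminal keratin, lost 2 regions and gained 1, and TFAP2A lost 1 and gained 1.

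The remaining pathway lists had between 2.42% and 8% of their regions gained. Small MAF and NRF2 pathway genes had 5 gained of 99, among them SLC7A11, the cystine transporter, and HMOX1, heme oxygenase. Antigen presentation and interferon genes had 4 gained and 2 lost of 50. IRF2 held 3 of the gained ones. IRF1 lost a weak peak at 1 TSS, shared with ENSG00000283782, while its strongest promoter region (chr5:132494567-132501127) had 7.85 and 7.59 without TWEAK and 12.2 and 10.5 with it and was not called (rank difference 0.46, SE 0.218, limma adjusted p = 0.576). The BCL2 family had 4 gained and 1 lost of 62, 2 of them near BCL2A1, an NF-κB target that protects from apoptosis. Mesenchymal and invasion genes had 4 of 97, near LAMB3, ITGB1, MMP2 and CDH2. NAD synthesis genes had 3 of 73 (KMO, TDO2 and NMNAT2), lipid and sterol genes 3 of 80 (ACSL3, ELOVL6 and INSIG1), AP-1 genes 2 of 60 (FOSL1 and FOSL2), G1 cell cycle genes 2 of 60 (CDKN1A and CDKN2B) and ribosomal protein genes 3 of 124. Of the marker lists, HER2-type epithelium had 2 gained and 2 lost of 52, endothelium 1 and 2 of 47, fibroblasts 2 and 0 of 8 and blood cells 0 and 1 of 14. The promoter of NAMPT, the rate-limiting enzyme of NAD salvage, had rank percentiles of 98.6 and 95.6 without TWEAK and 97.9 and 95.8 with it (rank difference −0.07, SE 0.246, limma adjusted p = 0.954), and none of the 7 regions of NAMPT was gained, lost or risen. TNFRSF12A, the receptor gene, had 93.0 and 93.4 against 95.3 and 96.5 at its promoter (rank difference 0.25, SE 0.214, limma adjusted p = 0.779).

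**Figure D4:**
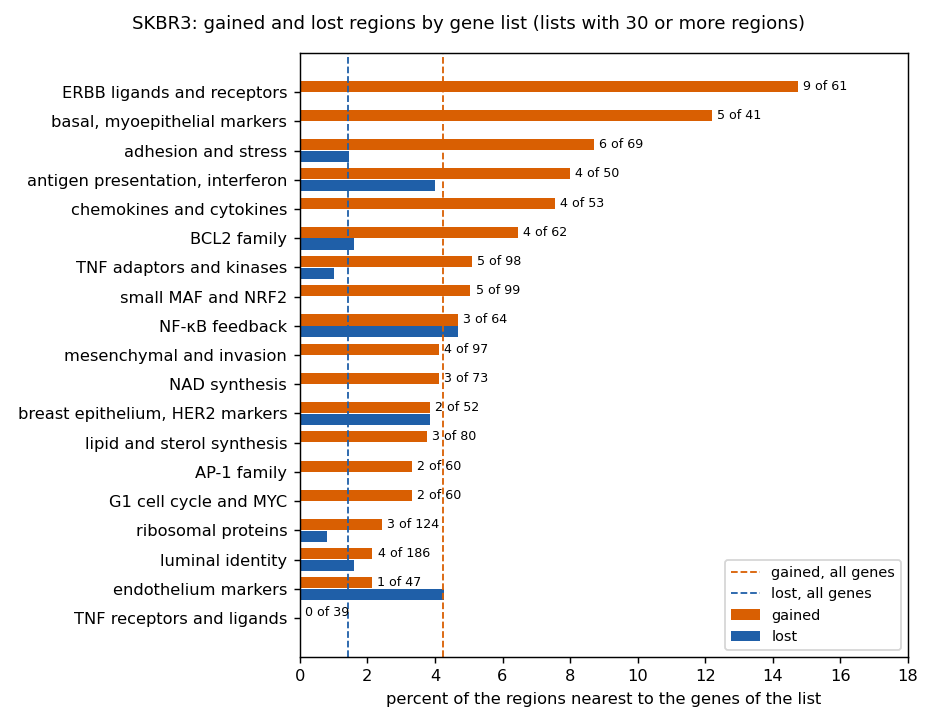
Percent of the regions nearest to the genes of each list that were gained (orange) or lost (blue) with TWEAK in SKBR3, for lists with 30 or more regions. Dashed lines give the same over all genes, 4.24% and 1.42%, and the ERBB list (9 of 61) has the longest orange bar.

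Motif matches were counted in the central 1000 bp of each region, on both strands, and are descriptions of sequence. An NF-κB match was held by 79 of the 173 risen regions (45.7%), 29.2% of gained, 12.3% of lost, 15.1% of all shared and 15.1% of all regions. Away from promoters the share was 45.2% of risen and 12.6% of shared regions. Per kb of region, risen regions held 0.33 matches, gained 0.334 and shared regions 0.178. AP-1 matches were held by 29.5% of risen, 36.5% of gained, 16.5% of lost and 23.9% of all regions. Away from promoters these shares were 29.0%, 36.7%, 17.4% and 26.6%, so that risen regions stood close to all regions there. FOXA matches (TGTTTAC) differed less, at 16.2%, 18.4% and 16.01% of risen, gained and lost regions. The TFAP2 motif, GCCNNNGGC, was held by 22.5% of risen, 22.7% of gained and 42.2% of lost regions, against 37.9% of shared and 32.1% of all regions. Lost regions lay at promoters in 18.7% of cases and gained ones in 5.38%, against 20.4% of all regions. Away from promoters the TFAP2 share was 37.25% of lost and 26.8% of all regions. The GRHL motif, AACCNGTT, was held by 13.3% of risen and 9.01% of all regions.

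**Figure D5:**
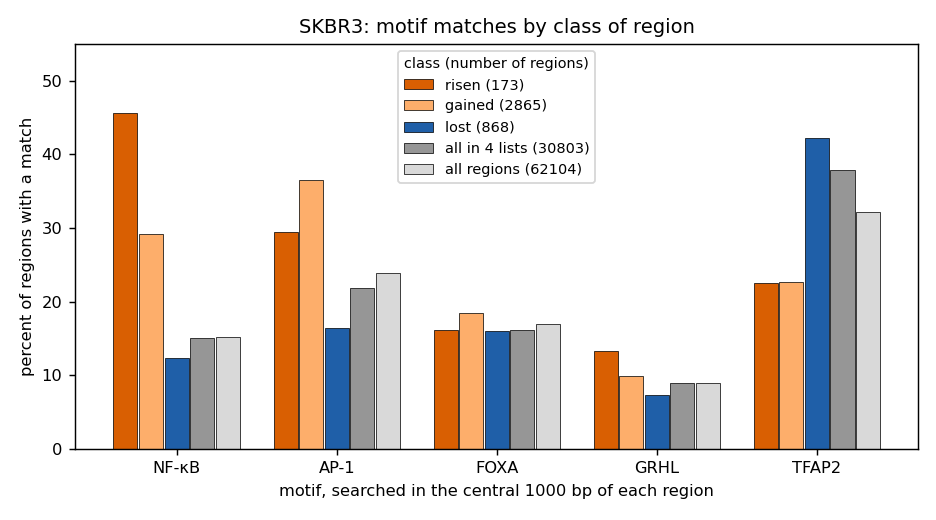
Percent of SKBR3 regions with at least 1 match to each motif in their central 1000 bp, by class of region. The tallest NF-κB bar is that of the 173 risen regions (45.7%), and the tallest TFAP2 bar that of the 868 lost ones (42.2%).

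The same places were looked up in MDA-MB-453. Of the 173 regions that rose in SKBR3, 114 (65.9%) overlapped no peak of any MDA-MB-453 list, against 34.9% of all shared SKBR3 regions, and 37 (21.4%) were covered in all 4. The risen regions were less often at promoters than shared regions and ranked low without TWEAK, and the shares were not matched for either. In the 36 that overlapped 1 region common to the 4 MDA-MB-453 lists, the median rank difference there was 0.10, and 25 of the 36 (69.4%) were above 0, against a median of 0.01 and 51.5% over all shared regions with a value there, while the same 36 had a median of 1.48 in SKBR3. The difference between the lines was not tested.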

How the data were processed

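Peaks of H3K27ac ChIP-seq had been called per library. By the submitters' processing notes and the study's methods, the authors trimmed reads with Trimmomatic, aligned them to hg38 with Bowtie2, called peaks with MACS2 against input and removed blacklisted regions (versions not given in the sources used here). Each deposited list held the authors' score, a fold enrichment over input (a ratio) and the −log10 of p and q per peak. The study compared signal with DiffBind on reads, which were not used here. Depth is therefore unknown, no counting interval can be given, and a deeper library lists more and wider peaks.

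Here peaks on chromosomes 1 to 22 and X were joined into 1 region wherever they shared a base. For regions in all 4 lists, the highest fold enrichment was ranked in each list and turned into normal scores, and widths into centred log2 bp. Both were tested with limma 3.58.1 (robust, with trend; two-sided; Benjamini-Hochberg over all 30803 regions; called under 0.05), a code tested on simulated data. The libraries are numbered as replicates, and p-values measure only the spread between them. Genes are protein-coding, GENCODE 44, by the nearest TSS (within 100 kb for counts by gene and list, at any distance for the name of a single region), and promoters lie within 1 kb of a TSS.

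Members and gene lists were chosen with earlier results of these data known. Named were the 12 largest risen and 8 fallen regions, 5 widened and 5 narrowed, the 8 gained regions of highest mean percentile, the 10 genes with most gained and 5 with most lost regions, and NAMPT, TNFRSF12A and ERBB2. A choice of list members with a gained, lost or called region was named too. Of the regions, 1 risen one and some sequences are not reported here. Alternatives were other rank measures and width scalings, a filter on weak regions, merging over 1 kb, q under 1e-05, lists of equal length, presence over 50% of a region, other TSS rules, a replicate block and leaving out each library.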

Additional observations from a re-analysis of the deposited data

How the results depend on the processing

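Of the regions in all 4 lists, 173 rose and 1 fell. Ranking by −log10 q gave 168 and 2, width times fold enrichment 0 and 0, leaving out the weakest regions 111 and 0, q under 1e-05 27 and 0, and merging over 1 kb 158 and 0. Of the 168 and of the 111, 158 and 111 were among the 173. Without a library, risen regions ranged from 85 (without TWEAK replicate 2) to 584 (without TWEAK replicate 1) and fallen ones from 8 to 123. They were 437 without untreated replicate 1 and 357 without untreated replicate 2. A group with 1 library left is assumed to vary like the other. In every alternative fitted on the same regions, those of the 173 that were kept had a positive difference. They were chosen for a rise in the same lists, so this sign is no separate evidence. Leaving out the weakest regions ended the calls near COMTD1, CFLAR, ESR1, BIRC3 and LIF without moving their values. It kept 150 of the 173 in the fit. Among the regions it removed, which could then not be called, were those near GDAP1, NRCAM, COLEC10, KLHL38, MYC, CAVIN1, NFE2L3 and HLA-E. The fall near COMTD1 became 0.037 with width times fold enrichment. No alternative gave a widened or narrowed region (0 to 0). With the replicate block 1069 rose and 193 fell, the 173 among the 1069. Untreated and TWEAK libraries of the same number deviated together (correlation 0.37 for ranks, 0.30 for widths), but there are only 2 pairs and the labels name no shared batch, so the number is not taken as a pairing.

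Gained and lost regions were 1569 and 195 with q under 1e-05, and their genes 1079 and 177. Lost regions were 1303 with equal lists and 1309 when presence needed 50% of the region, with 1064 genes. A TSS within 10 kb gave 679 and 351 genes. Without a library, gained regions ranged from 4557 (without untreated replicate 1) to 10679 (without TWEAK replicate 1) and lost ones from 1997 (without TWEAK replicate 1) to 5879 (without untreated replicate 2), since a region then needs fewer lists. Genes ranged from 2756 to 4946 and from 1537 to 3630. Without untreated replicate 2, where a lost region needed 1 list and a gained one 2, lost exceeded gained, in regions (5879 and 4839) and genes (3630 and 2804). The causes were not tested. Read depth, not known here, limits every absence.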
